A study of Homo sapiens with 9 samples.

Results

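The claudin and tight junction genes described here are 10 genes, CLDN1, CLDN2, CLDN3, CLDN4, CLDN7, CLDN12, CLDN15, OCLN, TJP1 and TJP3, taken by symbol from the 58920 genes listed in each count table. LIM1215 is a human colorectal cancer cell line, and poly(A) RNA of 3 of its populations was sequenced in untreated culture. LIM1215-parental cells were kept without drug, whereas LIM1215-R1 and LIM1215-R2 were derived from them independently under rising doses of cetuximab, an antibody against the receptor EGFR. Each line was sequenced as 3 libraries that the study calls technical replicates, so p-values measure only the spread between these libraries and each line stands for 1 population of cells. All 10 members passed the filter of at least 10 counts over the 9 libraries. The RNA is from bulk cultures, in which fewer cells with a transcript and less transcript per cell cannot be told apart.

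Tight junctions seal the space between neighbouring epithelial cells just below their apical surface. Claudins form the strands of the junction, and the set of claudins in a cell sets which ions and small molecules pass between cells. Most claudins seal, as claudin-1, claudin-3, claudin-4 and claudin-7 are thought to do, while claudin-2 and claudin-15 form channels for cations and water. Occludin, the product of OCLN, lies in the same strands, and the zonula occludens proteins, of which TJP1 encodes ZO-1 and TJP3 encodes ZO-3, tie the strands to the actin cytoskeleton.

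The cells carried the markers of their labelled type. Of 9 epithelial markers, 8 reached at least 1 CPM (counts scaled to the size of the library, with TMM factors) in every library of each line, and KRT20 had 0 counts in all of them. The summed epithelial marker level was 12266 to 12616 CPM in LIM1215-parental, 15843 to 16125 in LIM1215-R1 and 14355 to 14754 in LIM1215-R2. This sum does not give the direction of each marker. CDX1 and CDX2, which are part of it, were lower in both resistant lines, and the other markers are not listed singly here. Against this, 6 fibroblast markers summed to 1.19 to 3.19 CPM per library, 4 endothelial markers to at most 0.722 CPM and 5 immune markers to 6.9 to 14.4 CPM, with PTPRC, CD3E and MS4A1 at 0. Total counts lay between 13737416 and 18725014 per library.

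CLDN2 and CLDN1 were higher in both resistant lines than in parental cells and CLDN3 was lower in both, as tested below. The sequences around their annotated starts are shown because these are the members with a change in both lines. Each window is taken from RefSeq (GRCh38.p14) and runs from 250 bases before to 50 bases after the start, 5′ to 3′ on the strand of the gene. All 10 members matched an entry, with 17 windows in all. Capitals mark matches, on either strand, to any of 8 short motifs: TTTATNG of the CDX factors, GTTAAT of HNF1, ATCAAAG of TCF/LEF, the E-box CACCTG of SNAI and ZEB factors, ACCGGTT of GRHL factors, AGGTCA of nuclear receptors, the SP1 GC box GGGCGG and the TATA box TATAAA. None of these motifs was written as part of another, and matches overlap only where the text says so.
CLDN2 first start, chrX:106899914-106900213, plus strand: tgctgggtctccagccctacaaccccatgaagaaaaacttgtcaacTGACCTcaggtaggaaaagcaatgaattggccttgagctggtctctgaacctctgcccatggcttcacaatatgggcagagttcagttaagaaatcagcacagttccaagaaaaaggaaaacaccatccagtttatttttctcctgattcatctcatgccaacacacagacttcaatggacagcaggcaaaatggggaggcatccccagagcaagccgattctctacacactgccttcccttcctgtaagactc
CLDN2 second start, chrX:106918110-106918409, plus strand: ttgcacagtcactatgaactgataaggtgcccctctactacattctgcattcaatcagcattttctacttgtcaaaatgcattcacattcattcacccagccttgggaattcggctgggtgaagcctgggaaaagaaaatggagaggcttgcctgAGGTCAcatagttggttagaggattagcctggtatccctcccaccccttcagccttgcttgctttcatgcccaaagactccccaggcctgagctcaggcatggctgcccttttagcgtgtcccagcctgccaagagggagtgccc
CLDN1, chr3:190322397-190322696, minus strand: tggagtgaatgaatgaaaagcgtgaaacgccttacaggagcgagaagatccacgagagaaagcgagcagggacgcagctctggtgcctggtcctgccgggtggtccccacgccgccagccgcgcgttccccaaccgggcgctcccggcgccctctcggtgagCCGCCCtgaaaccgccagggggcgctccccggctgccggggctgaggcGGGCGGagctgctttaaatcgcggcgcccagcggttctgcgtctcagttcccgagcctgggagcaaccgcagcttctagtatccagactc
CLDN3, chr7:73770221-73770520, minus strand: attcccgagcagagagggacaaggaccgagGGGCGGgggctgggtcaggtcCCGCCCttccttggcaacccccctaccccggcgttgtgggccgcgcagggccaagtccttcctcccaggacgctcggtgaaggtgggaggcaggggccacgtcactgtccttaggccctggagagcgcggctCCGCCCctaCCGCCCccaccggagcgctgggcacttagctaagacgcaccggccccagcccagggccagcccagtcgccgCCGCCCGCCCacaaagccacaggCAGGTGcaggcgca

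The 4 windows differed in base composition. The CLDN2 windows had a GC content of 47.3% and 51.3%, against 67% for CLDN1 and 72% for CLDN3. Each CLDN2 window held 1 AGGTCA, at base -204 from the first start on the minus strand of the gene and at base -95 from the second start on its plus strand, and no GC box. AGGTCA occurred in 13.8% and the GC box in 45% of 35116 RefSeq windows of the same length. The CLDN1 window held 2 GC boxes, at bases -88 and -40. In the CLDN3 window 6 GC boxes were found, of which the 2 at bases 14 and 18 overlap, along with 1 CACCTG at base 37, a motif present in 20.6% of windows. The CDX motif occurred in 9.73% of windows, the HNF1 motif in 6.88%, the TCF/LEF motif in 2.62%, the GRHL motif in 0.772% and the TATA box in 11.5%, and all 5 in none of the 4 shown. A match is a run of letters and was not tested as a binding site.

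CLDN2, which encodes the channel-forming claudin-2, showed the largest difference among the members. Its gene lies on chromosome X at positions 106900164 to 106930861 (GRCh38.p14, plus strand). The parental libraries had 0, 8 and 4 counts, or 0, 0.578 and 0.21 CPM, and the library without a count allows a level of up to 0.177 CPM (3 counts). In LIM1215-R1 the 3 libraries had 19.8, 24 and 21.8 CPM (323, 383 and 349 counts). In LIM1215-R2 they had 18.2, 18.8 and 19.3 CPM (306, 303 and 295 counts). All 6 resistant libraries lay far above all 3 parental ones, and the lowest resistant library was that of LIM1215-R2 replicate 1.

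The mean level of CLDN2 was 0.263 ± 0.293 CPM in parental cells (SD, n = 3), 21.9 ± 2.11 in LIM1215-R1 and 18.7 ± 0.537 in LIM1215-R2, which is 83.4-fold and 71.4-fold higher. On the log2 scale CLDN2 rose by 6.46 in LIM1215-R1 (SE 0.245, 95% confidence interval 5.96 to 6.96, adjusted p = 7.3e-18) and by 6.24 in LIM1215-R2 (SE 0.251, 5.72 to 6.75, adjusted p = 2.97e-17, quasi-likelihood test of edgeR, adjusted over all genes by the Benjamini-Hochberg method). The size rests on 12 parental counts. Without parental replicate 2, which held 8 of them, the log2 fold changes of CLDN2 were 7.53 and 7.30, and without parental replicate 1 they were 5.87 and 5.65. Between the resistant lines the log2 difference was -0.22 (95% interval -0.46 to 0.01) with an adjusted p of 0.23 in the same edgeR test.

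CLDN15 encodes the other channel-forming claudin among the members and lies on chromosome 7 at positions 101232094 to 101238820 (minus strand). Its parental libraries had 11.7, 12.9 and 10.5 CPM, those of LIM1215-R1 10.9, 10.7 and 12.6 CPM, and those of LIM1215-R2 12.5, 11 and 12.8 CPM. The 3 groups overlapped. Its log2 fold change was -0.02 in LIM1215-R1 (95% interval -0.25 to 0.21) and 0.06 in LIM1215-R2 (-0.17 to 0.29), with adjusted p of 0.903 and 0.763 by edgeR, so a change of the size seen for CLDN2 lies far outside these intervals.

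Of the sealing claudins, CLDN1 was higher in the resistant lines by nearly the same amount in both. The gene lies on chromosome 3 at positions 190305707 to 190322446 (minus strand). It measured 134.7, 132.1 and 133.7 CPM in the parental libraries, 243.5, 240.6 and 237.7 CPM in LIM1215-R1 and 249.9, 242.9 and 230.8 CPM in LIM1215-R2. No resistant library came near the parental ones, and the spread within a line was small. The means were 133.5 ± 1.28, 240.6 ± 2.94 and 241.2 ± 9.69 CPM (SD, n = 3), which is 1.8-fold higher in LIM1215-R1 and 1.81-fold in LIM1215-R2. CLDN1 rose by 0.85 on the log2 scale in both lines (SE 0.0456 in each, adjusted p = 1.48e-14 and 1.38e-14 in the same edgeR test). The 2 resistant lines differed by 0.00 (95% interval -0.09 to 0.09, adjusted p = 0.983 by edgeR).

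CLDN3 was lower in the resistant lines. It lies on chromosome 7 at positions 73768997 to 73770270 (minus strand). The parental libraries had 206.5, 233.1 and 203.8 CPM, those of LIM1215-R1 144.2, 171.9 and 173.4 CPM, and those of LIM1215-R2 142.4, 131.5 and 152.1 CPM. Every resistant library was below every parental one, while the resistant lines overlapped each other. From a parental mean of 214.4 ± 16.2 CPM the level was 1.31-fold lower in LIM1215-R1 (163.2 ± 16.4) and 1.51-fold lower in LIM1215-R2 (142.0 ± 10.3). CLDN3 fell by 0.39 on the log2 scale in LIM1215-R1 (SE 0.0646, adjusted p = 1.8e-05) and by 0.59 in LIM1215-R2 (SE 0.065, adjusted p = 2.66e-08, edgeR with Benjamini-Hochberg adjustment). The size depended on the processing. Over the alternatives the log2 fold change of CLDN3 ran from -0.69 to -0.31 in LIM1215-R1 and from -0.79 to -0.53 in LIM1215-R2.

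CLDN4 lies on the same chromosome at positions 73830996 to 73832690 (plus strand) and encodes a sealing claudin that also serves as a receptor for a bacterial enterotoxin. Its parental libraries had 348.3, 393.9 and 352.2 CPM, those of LIM1215-R1 304.9, 348.0 and 338.1 CPM, and those of LIM1215-R2 278.2, 288.6 and 311.5 CPM. LIM1215-R2 lay wholly below the parental range, and the highest LIM1215-R1 library came just under the lowest parental one. CLDN4 fell by 0.32 on the log2 scale in LIM1215-R2 (SE 0.0541, 1.25-fold lower, adjusted p = 3.19e-05 by edgeR). In LIM1215-R1 its log2 fold change was -0.14 (95% interval -0.25 to -0.03, adjusted p = 0.0393) and did not pass the threshold of an adjusted p of at most 0.01. It passed there with scaling by total counts (-0.18, adjusted p = 0.00963) and after a correction for GC content and transcript length (-0.27, adjusted p = 1.63e-08).

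CLDN7 encodes a claudin of the lateral membrane and is found on chromosome 17 at positions 7259903 to 7263213 (minus strand). It shares exon sequence on its strand with the gene ENSG00000262302, so its counts may depend on how such reads were assigned. The 3 parental libraries had 291.5, 323.6 and 290.5 CPM, those of LIM1215-R1 336.2, 378.9 and 356.4 CPM, and those of LIM1215-R2 326.7, 327.2 and 331.2 CPM. All resistant libraries lay above the parental ones, by a narrow margin in LIM1215-R2. CLDN7 rose by 0.24 on the log2 scale in LIM1215-R1 (SE 0.0484, 1.18-fold, adjusted p = 0.000205 by edgeR). Once corrected for GC content and length, this difference was 0.07 with an adjusted p of 0.084. In LIM1215-R2 the log2 fold change was 0.12 (95% interval 0.02 to 0.22, adjusted p = 0.0554), and without parental replicate 2 it was 0.17 (adjusted p = 0.00456).

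CLDN12 encodes a claudin that lacks the motif with which the others bind the zonula occludens proteins, and lies on chromosome 7 at positions 90403461 to 90415954 (plus strand). It shares exon sequence on its strand with CDK14, ENSG00000273299, GTPBP10 and PTTG1IP2. Its libraries had 46.4, 41.3 and 44.9 CPM for the parental line, 50.8, 40.2 and 47.8 CPM in LIM1215-R1 and 50.6, 43.6 and 43.9 CPM in LIM1215-R2. The lines overlapped throughout. The log2 fold change was 0.06 in each resistant line, with 95% intervals of -0.10 to 0.23 and -0.11 to 0.22 and adjusted p of 0.592 and 0.652 by edgeR.

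**Figure D1:**
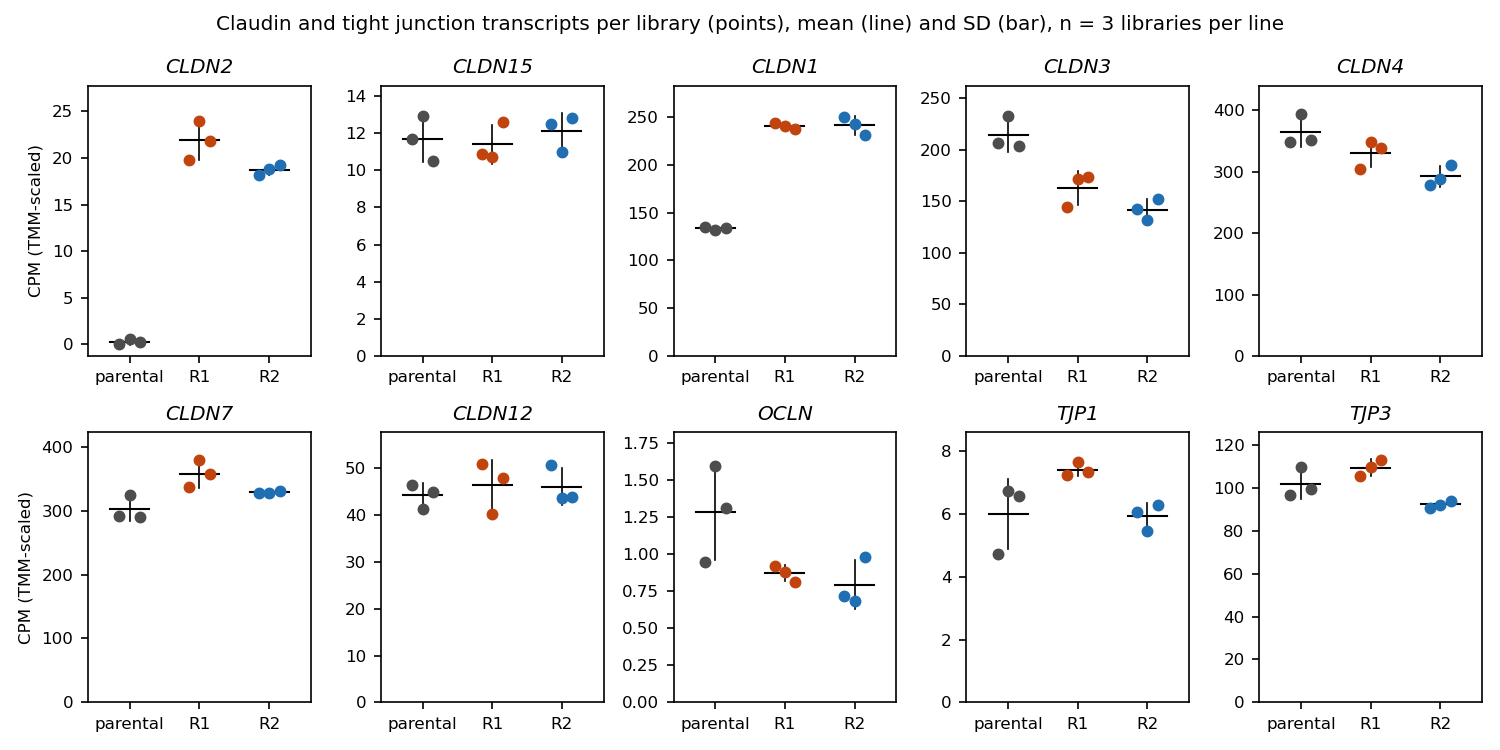
Level of each of the 10 members in CPM scaled by TMM factors, with 1 point per library, a line at the mean and a bar for the SD of the 3 libraries of each line. Each panel has its own axis that includes 0. CLDN2 reaches at most 0.578 CPM in a parental library and at least 18.2 CPM in a resistant one, CLDN1 is higher and CLDN3 lower in both, and CLDN15 and CLDN12 overlap between the lines.

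The strand protein occludin and the scaffold ZO-1 were counted at low levels. OCLN (chromosome 5, positions 69492547 to 69558104, plus strand) had 143 counts in all 9 libraries together. Its parental libraries had 0.944, 1.59 and 1.31 CPM, those of LIM1215-R1 0.92, 0.879 and 0.813 CPM, and those of LIM1215-R2 0.714, 0.681 and 0.98 CPM. The highest library of LIM1215-R2 overlapped the lowest parental one. The log2 fold change of OCLN was -0.54 in LIM1215-R1 (95% interval -1.18 to 0.10, adjusted p = 0.199) and -0.68 in LIM1215-R2 (-1.34 to -0.03, adjusted p = 0.109 by edgeR). Neither change passed the threshold of an adjusted p of at most 0.01, although the interval in LIM1215-R2 held only negative values. At counts this low the intervals were wide.

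TJP1 (chromosome 15, positions 29699367 to 29969049, minus strand) had 4.72, 6.72 and 6.57 CPM in the parental libraries. It had 7.24, 7.66 and 7.32 CPM in LIM1215-R1 and 6.07, 5.45 and 6.27 CPM in LIM1215-R2. LIM1215-R1 lay above both other lines, whose libraries overlapped. The log2 fold change was 0.31 in LIM1215-R1 (95% interval 0.01 to 0.60, adjusted p = 0.0969) and -0.01 in LIM1215-R2 (-0.32 to 0.29, adjusted p = 0.964 by edgeR).

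OCLN and TJP1 are also the members whose exons have copies in the alternate sequences of the genome build. Exons were divided into overlapping pieces of 100 bases and compared with all hg38 sequences, allowing 1 difference. Of 409 pieces of OCLN, 96.1% matched an alternate sequence and 61.1% matched elsewhere on the chromosomes as well. Of 339 pieces of TJP1, 99.4% matched an alternate sequence, whereas no piece of the other 8 members matched anywhere else. The same held for 97.8% of 186 pieces of MARVELD2, which encodes tricellulin, and for 100% of 50 pieces of the epithelial marker KRT20 with its 0 counts. Whether the authors' genome index held these sequences is not given in the sources used here, and their part in the low counts was not tested.

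TJP3 (chromosome 19, positions 3708384 to 3750813, plus strand) was the member called between the resistant lines. It measured 96.5, 109.7 and 99.3 CPM in the parental libraries, 105.3, 109.7 and 112.9 CPM in LIM1215-R1 and 90.7, 91.9 and 93.9 CPM in LIM1215-R2. The LIM1215-R2 libraries lay below all others, and parental and LIM1215-R1 libraries overlapped. The mean was 109.3 ± 3.83 CPM in LIM1215-R1 and 92.2 ± 1.64 in LIM1215-R2 (SD, n = 3). TJP3 fell by 0.25 on the log2 scale from LIM1215-R1 to LIM1215-R2 (SE 0.0554, 1.19-fold lower, adjusted p = 0.00291 by edgeR).

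The TJP3 call between the resistant lines was lost when 1 of 3 libraries was left out, with an adjusted p of 0.031 without LIM1215-R1 replicate 3, 0.0254 without LIM1215-R2 replicate 1 and 0.0219 without LIM1215-R2 replicate 2. Against parental cells its log2 fold change was 0.10 in LIM1215-R1 (adjusted p = 0.15) and -0.14 in LIM1215-R2 (adjusted p = 0.0521 by edgeR). Once corrected for GC content and length, these values were -0.12 (adjusted p = 0.0165) and -0.30 (adjusted p = 1.24e-07), so the direction in LIM1215-R1 turned and TJP3 in LIM1215-R2 passed the threshold.

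Some libraries were high or low for several members at once. Parental replicate 2, the library with the lowest total count, was the highest parental library for 8 of the 10 members, all but CLDN1 and CLDN12. LIM1215-R1 replicate 1 was the lowest of its line for CLDN2, CLDN3, CLDN4, CLDN7, TJP1 and TJP3. CLDN3 and CLDN4 also came lower in LIM1215-R2 than in LIM1215-R1, with log2 differences of -0.20 (adjusted p = 0.0418) and -0.17 (adjusted p = 0.0318 by edgeR) that did not pass. Without LIM1215-R1 replicate 1 they were -0.28 (adjusted p = 0.00155) and -0.23 (adjusted p = 0.00347), both past the threshold. CLDN4 also passed there without parental replicate 2 (adjusted p = 0.00892).

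Read against all genes tested, the members stood as follows. In LIM1215-R1, 4 of the 10 were called against parental cells at an adjusted p of at most 0.01 by edgeR, where 27.3% of 19102 genes were called. CLDN2, CLDN1 and CLDN7 were higher (3 of 10, against 14% of genes called higher) and CLDN3 was lower (1 of 10, against 13.4% called lower). In LIM1215-R2, 4 of the 10 were called, beside 23.8% of genes. CLDN2 and CLDN1 were higher (2 of 10, against 12.3%) and CLDN3 and CLDN4 lower (2 of 10, against 11.6%). These shares of all genes include genes with few counts. Among 12180 genes with at least 10 counts in every library, 37% were called in LIM1215-R1 and 32% in LIM1215-R2. All members but CLDN2 passed that filter, and 3 of them were called in each line.

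CLDN2 alone, in both lines, also reached an absolute log2 fold change of 1.5, the size at which a called gene is named a differentially expressed gene (DEG) here. That is 1 of 10 members, beside 5.14% of genes in the first and 4.82% in the second line. Both comparisons use the same 3 parental libraries. Between LIM1215-R2 and LIM1215-R1, 1 of 10 members was called, where 7.16% of genes were called (3.39% higher, 3.77% lower). No member was a DEG there by edgeR or by DESeq2, beside 0.764% of genes, and 5 members had an unadjusted p under 0.05. The share of all genes with such an unadjusted p, here and for the lists below, was not computed. The median log2 fold change of the members was 0.08, 0.02 and -0.16 in the 3 comparisons, and that of all genes tested lay between -0.01 and 0.00.

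**Figure D2:**
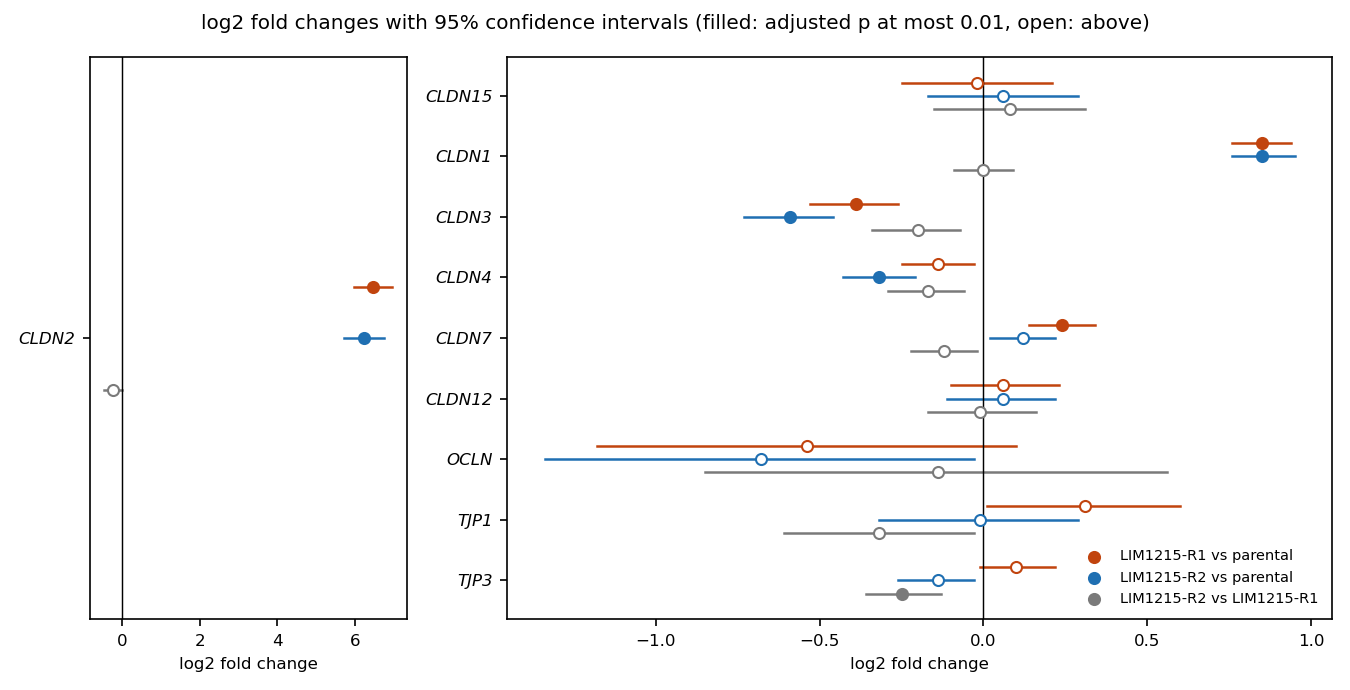
Log2 fold changes of the 10 members with 95% confidence intervals in the comparisons of LIM1215-R1 with parental, LIM1215-R2 with parental and LIM1215-R2 with LIM1215-R1, with CLDN2 on an axis of its own. Filled points have an adjusted p of at most 0.01. CLDN2 lies at 6.46 and 6.24 and CLDN1 at 0.85 in both lines, CLDN3 lies at -0.39 and -0.59, and the intervals of OCLN are the widest.

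To compare levels between genes, counts were expressed as CPM per kilobase of the longest annotated transcript. In parental cells CLDN3 (168.3 ± 12.7 CPM per kilobase, SD, n = 3) and CLDN7 (157 ± 9.81) were the most abundant members, and their libraries overlapped. CLDN4 (87.6 ± 6.06), CLDN1 (38.7 ± 0.372), TJP3 (33.1 ± 2.26), CLDN12 (12.4 ± 0.748), CLDN15 (5.49 ± 0.582) and TJP1 (0.755 ± 0.14) followed, each apart from its neighbours. OCLN (0.199 ± 0.0503) and CLDN2 (0.0887 ± 0.0988) came last and overlapped. The exon pieces of OCLN and TJP1 have the copies described above. Whether these lowered their levels and ranks, here and in the resistant lines, was not tested.

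In the resistant lines CLDN7 stood above CLDN3 on this scale, at 185.7 ± 11.1 against 128.1 ± 12.9 CPM per kilobase in LIM1215-R1 and 170.8 ± 1.3 against 111.5 ± 8.08 in LIM1215-R2, without overlap. CLDN1 reached 69.8 ± 0.852 and 70 ± 2.81, close below CLDN4 in LIM1215-R1 (79.3 ± 5.41) and overlapping it in LIM1215-R2 (70.3 ± 4.09). CLDN2, last of the members in parental cells, stood seventh of them in both resistant lines, with 7.4 ± 0.714 and 6.33 ± 0.181 CPM per kilobase, above CLDN15 with 5.36 ± 0.494 and 5.67 ± 0.462. The order depends on the transcript chosen. With the length of the MANE Select transcript, CLDN4 led in parental cells (215.2 ± 14.9, overlapping CLDN7 with 195.8 ± 12.2) and came after CLDN7 and before CLDN3 in both resistant lines, and CLDN15 stood above CLDN2.

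The summed level of all 24 claudins in the tables was 474.5 ± 27.9 CPM per kilobase in parental cells, 493.2 ± 27.7 in LIM1215-R1 and 451.9 ± 10.8 in LIM1215-R2, and the ranges of the lines overlapped. Within this sum CLDN3 took a share of 35.4% ± 0.583 (SD, n = 3) in parental cells, 25.9% ± 1.31 in LIM1215-R1 and 24.6% ± 1.2 in LIM1215-R2. CLDN1 took 8.19% ± 0.536, 14.2% ± 0.959 and 15.5% ± 0.902. CLDN7 had 33.1% ± 0.119, 37.7% ± 0.723 and 37.8% ± 0.682 in the same order.

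CLDN4 held 18.5% ± 0.232 of the sum in parental cells, 16.1% ± 0.2 in LIM1215-R1 and 15.6% ± 0.684 in LIM1215-R2. CLDN2 took 0.018% ± 0.0194 in parental cells, 1.5% ± 0.0695 in LIM1215-R1 and 1.4% ± 0.037 in LIM1215-R2. CLDN12 and CLDN15 stayed between 1.09% and 2.86% in every line with the longest transcript. With the median transcript length CLDN12 held 7.24% in parental cells, 7.02% in LIM1215-R1 and 7.53% in LIM1215-R2. In the same order CLDN7 then led with 41.1%, 45% and 44.9%. CLDN4 held 23.7%, 19.8% and 19%, CLDN3 18.5%, 13% and 12.3%, and CLDN1 7.59%, 12.7% and 13.7%. With MANE Select lengths CLDN4 held 33.4%, 29.6% and 28.7%, CLDN1 6.02%, 10.6% and 11.7%, CLDN3 26.1%, 19.4% and 18.5%, and CLDN2 1.12% and 1.05% in the resistant lines.

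**Figure D3:**
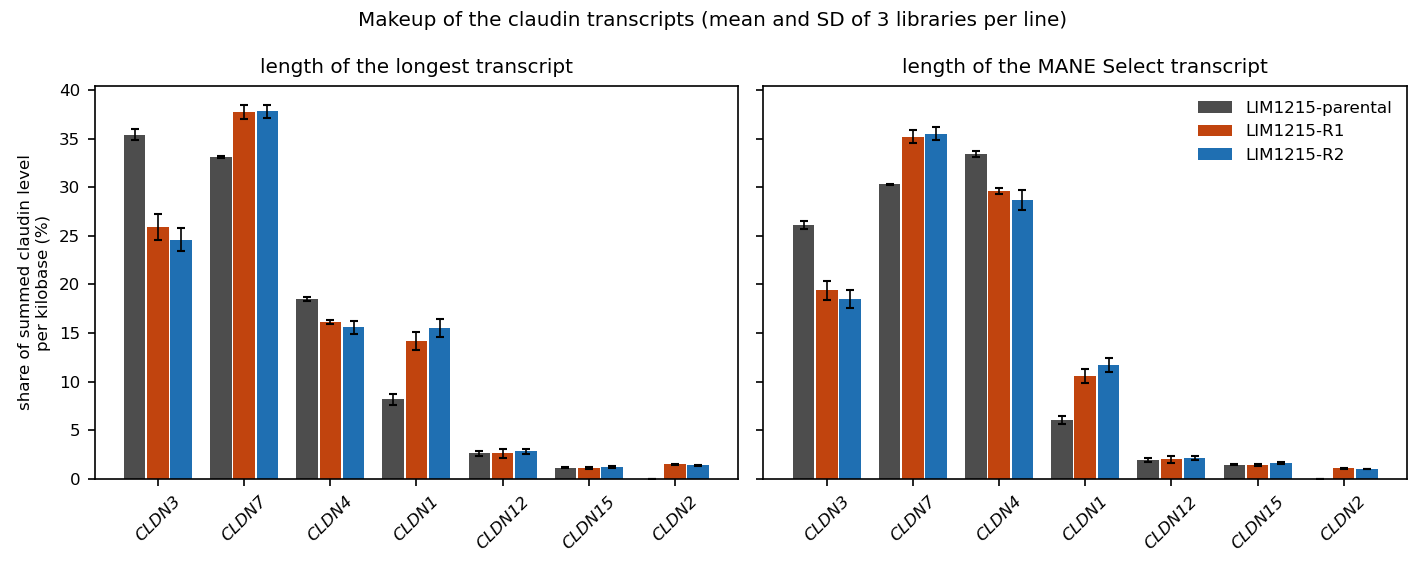
Share of each claudin member in the summed level of 24 claudins, in percent of CPM per kilobase, with bars for the mean and error bars for the SD of 3 libraries per line. The left panel uses the longest transcript of each gene and the right panel the MANE Select transcript. CLDN3 goes from 35.4% to 25.9% and 24.6% and CLDN1 from 8.19% to 14.2% and 15.5% with the longest transcript, and the order of CLDN3, CLDN4 and CLDN7 differs between the panels.

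Ratios within a library do not depend on how libraries are scaled. The ratio of CLDN1 to CLDN3 in CPM was 0.625 ± 0.0504 in parental cells (SD, n = 3), 1.49 ± 0.176 in LIM1215-R1 and 1.71 ± 0.17 in LIM1215-R2. All 6 resistant libraries were above 1 (lowest 1.37) and all parental ones below (highest 0.656). The ratio of CLDN7 to CLDN4 was 0.828 ± 0.00801, 1.08 ± 0.0248 and 1.12 ± 0.0561, again without overlap of resistant and parental libraries. CLDN3 to CLDN4 was 0.588 ± 0.00784, 0.493 ± 0.02 and 0.485 ± 0.0283, so this ratio kept a spread of at most 0.0283 within a line although both genes varied between libraries. The ratio of CLDN2 to CLDN4 was 0.0662 ± 0.00249 and 0.0641 ± 0.00194 in the resistant lines and at most 0.00147 in a parental library.

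Genes whose pattern was most like that of CLDN2 were sought over the 9 libraries among 10335 genes with a mean of at least 5 CPM, by Pearson correlation of log2 CPM. They were PRDM1 (r = 0.998), a transcriptional repressor, with 1.57, 7.82 and 7.24 CPM in the parental, LIM1215-R1 and LIM1215-R2 means, the anion exchanger gene SLC4A3 (r = 0.9974) with 4.16, 16.6 and 15.7 CPM, and LTBP3 (r = 0.9932), which encodes a binding protein of latent TGF-beta, with 10.4, 18.8 and 18.7 CPM. The points fall into 3 lines, so these values describe a low parental and a high resistant level and say nothing further.

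The other genes of the junction were taken from 7 lists with 100 genes in all. Of 17 other claudins, 4 passed the filter and none was called in any of the 3 comparisons by edgeR or DESeq2, with 0, 1 and 1 at an unadjusted p under 0.05. The gene behind both of these, named after its values were seen, was CLDN22, with 1, 2 and 13 counts in the parental, LIM1215-R1 and LIM1215-R2 libraries together and an adjusted p of 0.0218 for LIM1215-R2 against parental by edgeR. Of its exon pieces 13.1% match elsewhere on the chromosomes. CLDN23 was the most abundant of these claudins, with 9.67 ± 1.1, 8.84 ± 1.26 and 8.62 ± 0.623 CPM (SD, n = 3) in overlapping libraries, and CLDN16, which encodes a claudin of the kidney, had 0.435 ± 0.189, 0.559 ± 0.212 and 0.351 ± 0.126 CPM.

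Among 8 tested membrane proteins of the tight junction other than claudins, 2 were called in LIM1215-R1 (25%, beside 27.3% of all genes) and 3 in LIM1215-R2 (37.5%, beside 23.8%), and none between the resistant lines by edgeR or DESeq2, where 2 had an unadjusted p under 0.05. ILDR2, of the family that forms contacts between 3 cells, was a DEG in both lines. It went from 2.29 ± 0.256 CPM in parental cells to 11.1 ± 0.358 in LIM1215-R1 and 8.92 ± 0.359 in LIM1215-R2 (SD, n = 3), a rise by 2.28 (SE 0.142, adjusted p = 3.57e-13) and 1.97 (SE 0.147, adjusted p = 1.52e-11 by edgeR) on the log2 scale. CXADR, an adhesion molecule and virus receptor, fell in both lines (log2 fold change -0.23 and -0.30), but its call in LIM1215-R1 was lost without parental replicate 1 (adjusted p = 0.0266), parental replicate 3 (0.0125) or LIM1215-R1 replicate 3 (0.0161) and once corrected for GC content and length (0.0478, all by edgeR). F11R, which encodes the junctional adhesion molecule JAM-A, fell in LIM1215-R2 (log2 fold change -0.17, adjusted p = 0.00838 by edgeR), and this call was lost without any 1 of 7 libraries, at an adjusted p of up to 0.0462. LSR, the most abundant of the list per length, had log2 fold changes of 0.15 and -0.00 and was not called.

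The plaque lies on the cytoplasmic side of the strands, and not every protein of this list binds the strands themselves. Of 13 tested, 9 were called in LIM1215-R1 (3 higher, 6 lower) and 8 in LIM1215-R2 (2 higher, 6 lower), against 27.3% and 23.8% of all genes. Between the resistant lines 1 was called (7.69%, beside 7.16% of all genes). ARHGEF2, which encodes an activator of RhoA, rose in both lines (log2 fold change 0.63 and 0.58), and YBX3 rose in LIM1215-R1 (0.37). AMOT, which encodes the scaffold angiomotin, fell in both lines (log2 fold change -1.31 and -1.68), from 13.5 ± 1.15 to 5.48 ± 0.426 and 4.21 ± 0.527 CPM, and was a DEG in LIM1215-R2. AMOTL2, the scaffolds MAGI1 (log2 fold change -0.85 and -0.67) and MAGI3 (-0.88 and -0.71), PATJ and USH1C (-0.48 and -0.44) fell in both lines.

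Apical polarity genes set the border between the apical and lateral membrane. Of 11 tested, 2 were called in LIM1215-R1 (18.2%, beside 27.3% of all genes), 3 in LIM1215-R2 (27.3%, beside 23.8%) and 1, PARD3B, between the resistant lines (9.09%, beside 7.16%), so each count lay near that of all genes. PARD3B had a log2 fold change of 0.40 there and kept its call in 15 of 17 alternatives. PARD3B fell in both lines (log2 fold change -1.14 and -0.74), as did PRKCI, which encodes an atypical protein kinase C (-0.49 and -0.46). PARD3 rose in LIM1215-R2 by 0.26 (adjusted p = 0.00201 by edgeR), also in 15 of 17 alternatives. PRKCZ and CDC42, the most abundant of the list per length, were not called in any of the 3 comparisons. Once corrected for GC content and length CDC42 was called in LIM1215-R1 (0.20, adjusted p = 8.79e-06) and between the resistant lines (-0.19, adjusted p = 7.04e-05 by edgeR).

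Adherens junction genes, which hold cells together below the tight junction, went both ways. Of 12 tested, 8 were called in LIM1215-R1 (4 higher, 4 lower) and 6 in LIM1215-R2 (3 higher, 3 lower), beside 27.3% and 23.8% of all genes. CTNNB1, which encodes beta-catenin, rose from 590.3 ± 14.1 CPM to 790.8 ± 20.3 and 891.3 ± 8.79 CPM (SD, n = 3). CDH17, which encodes the liver-intestine cadherin, fell from 597.6 ± 18 to 414.7 ± 8.12 and 399 ± 8 CPM. NECTIN4 rose from 0.744 ± 0.207 to 4.98 ± 0.378 CPM in LIM1215-R1, where it was a DEG (log2 fold change 2.70, adjusted p = 1.96e-10 by edgeR), and to 1.99 ± 0.0886 CPM in LIM1215-R2 (1.38). Between the resistant lines 6 of these 12 genes were called, against 7.16% of all genes.

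Of 13 desmosome genes tested, 7 were called in LIM1215-R1 (4 higher, 3 lower) and 9 in LIM1215-R2 (3 higher, 6 lower), beside 27.3% and 23.8% of all genes. The desmosome count in LIM1215-R2 fell to 5 without LIM1215-R2 replicate 2, beside 19.8% of all genes in that fit. Another 5 calls were made between LIM1215-R2 and LIM1215-R1, beside 7.16% of all genes. PERP rose from 602.4 ± 19.1 to 927.2 ± 41.4 and 793.4 ± 29.8 CPM (SD, n = 3), and EVPL and PKP3 rose with it in both lines, PKP3 not so once corrected for GC content and length (adjusted p = 0.802 and 0.344 by edgeR). DSC2, DSP and PKP2 fell in both, DSP in LIM1215-R2 in only 7 of 17 alternatives. DSC3 was called in opposite directions, higher in LIM1215-R1 (log2 fold change 0.53, 13 of 17 alternatives) and lower in LIM1215-R2 (-0.56, 10 of 17). Between the resistant lines it differed by -1.09 (adjusted p = 8.56e-06 by edgeR, called in 17 of 17). JUP, which encodes plakoglobin, had 396.2 ± 44.1, 454.2 ± 42.6 and 338.4 ± 14.2 CPM and was called lower in LIM1215-R2 (log2 fold change -0.23, adjusted p = 0.00569), a call that held in 12 of 17 alternatives. It was lost without parental replicate 2 (-0.13, adjusted p = 0.0614), LIM1215-R1 replicate 3 (0.0116), LIM1215-R2 replicate 1 (0.0348) or LIM1215-R2 replicate 2 (0.0479) and with at least 10 counts in every library (0.0121, all by edgeR).

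Transcription factors known to act on junction genes numbered 13 with a test, of which 9 were called in LIM1215-R1 and 8 in LIM1215-R2, beside 27.3% and 23.8% of all genes. GRHL1, GRHL3 and SNAI1, the last a repressor of epithelial genes at 2.57, 4.19 and 4.5 CPM, rose in both lines, with SNAI1 keeping its LIM1215-R1 call in 11 of 17 alternatives and its LIM1215-R2 call in 15. GRHL2, ELF3, HNF4A and the intestinal homeobox factors CDX1 and CDX2 fell in both, and OVOL1 in LIM1215-R1 (14 of 17 alternatives). CDX1 went from 194.7 ± 9.26 to 107.8 ± 5.23 and 124.2 ± 5.91 CPM (SD, n = 3), and CDX2 from 412.8 ± 17.3 to 305.2 ± 10.5 and 282.9 ± 4.7 CPM. ELF3 was the only gene of the list called between the resistant lines (log2 fold change -0.42, adjusted p = 4.74e-07 by edgeR), 1 gene beside 7.16% of all genes. CDX1 (0.20, adjusted p = 0.0114) missed the threshold there and passed it in 7 of 17 alternatives, among them DESeq2 (0.00866) and the correction for GC content and length (2.16e-07).

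The lists held genes of both directions, and their medians lay near 0. Against parental cells the median log2 fold change of the transcription factors was -0.21 in LIM1215-R1 and -0.14 in LIM1215-R2, and that of the plaque genes -0.16 and -0.14. The medians were -0.12 and -0.16 for the adherens junction, -0.09 and -0.08 for the other membrane proteins, 0.07 and 0.03 for the polarity genes, 0.20 and -0.03 for the desmosome and 0.10 and -0.13 for the 4 other claudins. Between the resistant lines they lay between -0.09 and 0.04 for all lists but the other claudins (0.53).

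**Figure D4:**
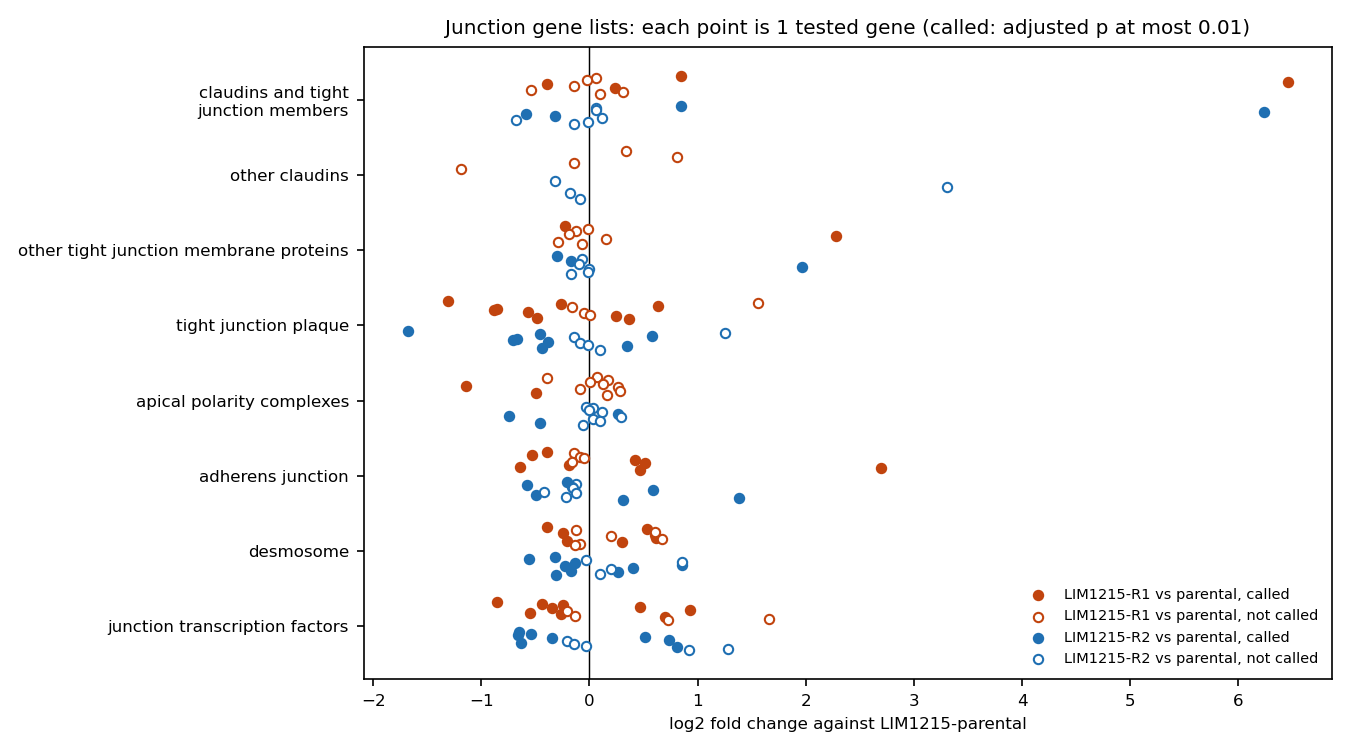
Log2 fold change of each tested gene of the 10 members and of the 7 other junction lists in both resistant lines, set against parental cells, with 1 point per gene. Filled points have an adjusted p of at most 0.01. CLDN2, at 6.46 and 6.24, lies farthest from 0, the other claudins have no filled point, and the plaque genes with filled points lie mostly below 0 (6 of 9 in LIM1215-R1, 6 of 8 in LIM1215-R2).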

How the data were processed

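Stranded poly(A) RNA libraries were sequenced, 3 for each of the parental and the 2 resistant lines. Reads were aligned by STAR to hg38, HTSeq 0.9.1 counted those of the reverse strand for each gene, and the authors deposited these raw counts, 1 table per library with 58920 symbols. The gene annotation is not given in the sources used here. Total counts lay between 13737416 and 18725014. Floors cover counting error only. Confidence intervals come from the edgeR fit and cover counting error and the spread between the libraries of a line, but not differences between independent cultures.

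The 19102 genes whose counts summed to 10 or more were fitted in 1 quasi-likelihood model with edgeR 4.0.16 (R 4.3.3, limma 3.58.1), TMM scaling and the 3 lines as groups and p-values adjusted over them by the Benjamini-Hochberg method. Genes with an adjusted p up to 0.01 were called, and DEGs also had a log2 fold change of 1.5 or more in size. SEs were derived from the test statistic, and the script was tested on simulated data. Replicate libraries differed by more than sampling noise (chi-square per degree of freedom 1.82 to 6.04). The alternatives were other filters, DESeq2 1.42.0 and its size factors, total counts, smaller fits, a replicate block, each library left out, removed trends on GC content and length (86.3% of genes tested had both), a wider threshold and other transcript lengths, of which MANE Select was added after the data were seen.

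Lengths come from GENCODE, and positions and promoter windows from RefSeq. Exon pieces of 100 bases, taken every 25 bases, were mapped with minimap2 2.31. The members and lists were chosen with earlier results of these data known. Genes of the other lists were named if a DEG at 1 CPM or more in the mean of a line, or if among the 2 most abundant per length in parental cells, and genes like CLDN2 were the 3 with the highest correlation. Further called genes are named as members of their list's count. The result of 1 gene that this rule names is not reported here.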

Additional observations from a re-analysis of the deposited data

Results flagged for a closer look

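Among the 10 members and the genes of the other lists named for their size or abundance, the change from parental cells differed for 5 between the resistant lines, tested as LIM1215-R2 against LIM1215-R1 by the quasi-likelihood test of edgeR, adjusted over all genes by the Benjamini-Hochberg method. TJP3 had a log2 fold change of -0.25 (adjusted p = 0.00291). For JUP it was -0.42 (adjusted p = 2.03e-05) and for NECTIN4 -1.32 (adjusted p = 1.79e-05). PERP differed by -0.22 (adjusted p = 0.000319). CTNNB1 was higher in LIM1215-R2, by 0.17 (adjusted p = 0.00168), and its call, like that of TJP3, was lost without LIM1215-R1 replicate 3, LIM1215-R2 replicate 1 or LIM1215-R2 replicate 2 (adjusted p of 0.0109, 0.0158 and 0.0142).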

How the results depend on the processing

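Over the 507 alternative values of the members' log2 fold changes, 474 kept direction and side of the threshold, 4 lost a call, 12 gained one and 17 turned in direction. CLDN1 and CLDN3 stayed called against parental cells in all 17 alternatives in both lines, and CLDN2 in the 16 that tested it. With at least 10 counts in every library CLDN2 was not tested, so DEGs among the members were 0 in both lines and 1 member was called higher in LIM1215-R2. Under this filter 12180 genes were tested, and 1989 of them were called higher in LIM1215-R2. The number of all genes that were DEGs was 302 when LIM1215-R1 was set against parental cells, and 297 for the other resistant line. In LIM1215-R1, 2 members were called lower with total counts, with the replicate block, with GC and length trends removed and at an adjusted p of 0.05. In the first 3 of these settings 2921, 2879 and 3313 of 19102 genes were called lower. At 0.05 the number of all genes was not computed. Between the resistant lines 3 members were called, all 3 lower, with no filter, with the replicate block and at 0.05, and 0 to 3 with a library left out. Of all genes, 6.04% were called there with no filter, 10.7% with the block and 3.97% to 9.13% with a library left out. Deviations of same-numbered libraries from the mean of their line correlated weakly and unevenly (-0.106 to 0.274, 4 of 9 libraries closest to their own number). For replicate 1 all pairs of lines were positive (0.0909 to 0.148). With the block 30.6%, 27.2% and 10.7% of all genes were called in the 3 comparisons, beside 27.3%, 23.8% and 7.16% without it. Whether the replicate number pairs the libraries is not settled by these values. With the replicate block CLDN4 was called in LIM1215-R1 (-0.14, adjusted p = 0.00383 by edgeR), and CLDN3 (0.00491) and CLDN4 (0.00171) between the resistant lines. 10 adherens junction genes were called in LIM1215-R2 with the block or with the trends removed, beside 27.2% and 30.2% of all genes. The block also gave a call to CDX1 (0.00167) and PRKCZ (0.00897) between the resistant lines. The tight junction membrane proteins called in LIM1215-R1 fell to 1 without parental replicate 1, parental replicate 3 or LIM1215-R1 replicate 3, with the loss of CXADR. In these fits 23.5%, 22.8% and 22.8% of all genes were called. The membrane proteins called in LIM1215-R2 came to 5 with the trends removed, beside 30.2% of all genes. Of the polarity genes 0 were called between the resistant lines without LIM1215-R1 replicate 3 or LIM1215-R2 replicate 3, beside 4.58% and 6.43% of all genes.

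With GC and length trends removed, log2 fold changes turned in direction for TJP3 (-0.12), LSR (-0.11) and PRKCZ (-0.03) in LIM1215-R1, for CLDN15 (-0.04), TJP1 (0.02) and CDC42 (0.01) in LIM1215-R2, and for CLDN23 between the resistant lines (0.05). With total counts CLDN12 turned there to 0.01. Leaving out a library turned values near 0 and that of CLDN16 in LIM1215-R2. The ranges were -0.10 to 0.05 for CLDN15 and -0.01 to 0.16 for CLDN12 in LIM1215-R1. In LIM1215-R2 CLDN16, at -0.32 from 22 parental and 17 LIM1215-R2 counts, ranged from -0.64 to 0.08. The other ranges there were -0.02 to 0.13 for CLDN15, -0.02 to 0.10 for CLDN12 and -0.16 to 0.07 for TJP1. Between the resistant lines they were -0.10 to 0.07 for CLDN12 and -0.11 to 0.08 for CLDN23. The cause was not tested. OCLN had the fewest counts of the members (143 in all) and their widest 95% intervals.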
